A study of Drosophila melanogaster with 13 samples.

Results

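Zeus proteins of D. simulans and D. melanogaster were compared by where they were bound in the genome of one host species. The comparison takes every distinct ChIP-Seq peak in the lists of Dsim_Zeus and Dmel_Zeus, on all sequences of the genome build except the mitochondrial genome, and asks how far the 2 proteins were found at the same places. Lines that repeated the same interval, name and score were counted once. This gave 1090 Dsim_Zeus and 376 Dmel_Zeus peaks, 1466 of the 3433 distinct peaks in the 3 lists of the series. The remaining list, of 1963 Dyak_Caf40 peaks, served as a reference.

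In ChIP-Seq, chromatin bound by a protein is recovered with an antibody and sequenced, and a peak is an interval where the reads pile up. Each protein carried an N-terminal 3xFLAG tag, was expressed from the Actin5C promoter, which is active in nearly all cells, and was carried by a single transgenic line of white-eyed w1118 D. melanogaster. Chromatin from whole adult flies, 150 per immunoprecipitated library, was recovered with an anti-FLAG antibody. For Dsim_Zeus the labels describe 4 immunoprecipitated libraries and 1 input, for Dmel_Zeus 2 and 1, and these are technical replicates. The host still had its own untagged Zeus and Caf40, and the tagged Zeus was present in tissues other than the testis, where the native gene is mainly expressed.

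Caf40 is a conserved subunit of the CCR4-NOT complex, which shortens mRNA tails and takes part in several steps of gene regulation. Zeus arose from it by retroposition from the X chromosome to an autosome in the ancestor of D. melanogaster and D. simulans, and has roles in the testis. The dm3 genome build, on which the peaks are given, holds the euchromatic arms 2L, 2R, 3L, 3R, 4 and X. It also holds assembled pieces of heterochromatin, such as 2RHet and YHet, that were not joined to an arm. Heterochromatin is the compact, repeat-rich chromatin around the centromeres and on the Y chromosome, and short reads are harder to place there. Chromosome 4, the small dot chromosome, is itself rich in heterochromatic marks.

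The Dsim_Zeus peaks lay largely in or beside heterochromatin, and the Dmel_Zeus peaks largely along the euchromatic arms, which also hold most of the sequence. Relative to length Dmel_Zeus was not denser there, with 2.17 to 3.17 peaks per Mb on the 5 large arms. On 5 of the 6 heterochromatic pieces it had 2.02 to 5.81. Its densest sequences were XHet, with 34.3, and chromosome 4, with 18.5, where Dsim_Zeus had 44.1 and 5.93. Chromosome 4, rich in heterochromatic marks but counted here as an arm, was thus an exception, with more Dmel_Zeus than Dsim_Zeus peaks. Heterochromatic sequences held 488 of 1090 Dsim_Zeus peaks, 44.8% (95% Wilson interval 41.8 to 47.7), and 36 of 376 Dmel_Zeus peaks, 9.57% (7.00 to 13.0). The difference was 35.2 percentage points (95% Newcombe interval 30.7 to 39.1). It was larger when the same number of top-scoring peaks was taken from each list. Of the 376 highest-scoring Dsim_Zeus peaks, 190 were heterochromatic, 50.5% (45.5 to 55.6), a difference of 41.0 points (34.9 to 46.6). By the numbers in the peak names, described further on, heterochromatic sequences spanned 20.8% of the Dsim_Zeus and 11.9% of the Dmel_Zeus numbers, a smaller difference than in listed peaks. The score separated the last peak taken from the next one by very little, 12.65 against 12.64.

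Each protein had a single list, so no difference could be set against the spread between replicates, and none was tested. Intervals here and below cover counting error only and treat neighbouring peaks as independent, which they are not. The library numbers of Dsim_Zeus, 1004 to 1008, lay apart from those of Dmel_Zeus, 633 to 671, so library series and protein cannot be told apart. The read depth behind the lists is unknown from them.

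In number of peaks, the Dsim_Zeus excess was largest on the 3 longest heterochromatic pieces, which have the most room for peaks. Per Mb it was not ordered by length, with 61.0 Dsim_Zeus and 5.81 Dmel_Zeus peaks on YHet and 45.7 and 2.02 on the longer 3RHet. On 2RHet there were 176 Dsim_Zeus and 7 Dmel_Zeus peaks, on 3LHet 148 and 13, and on 3RHet 113 and 5. On 2LHet the counts were 21 and 2, and on YHet, from the male-specific Y chromosome, they were also 21 and 2. XHet stood apart with 9 and 7 peaks, and with 7 and 7 in equal numbers of top-scoring peaks. Relative to length, Dsim_Zeus had 44.1 (XHet) to 61.0 (YHet) peaks per Mb on these pieces and 3.05 (3R) to 7.35 (2R) on the arms. Dmel_Zeus had 2.02 (3RHet) to 5.81 (YHet) peaks per Mb on 5 of the 6 heterochromatic pieces and 34.3 on XHet. On the 5 large arms its density was 2.17 to 3.17 per Mb, and on chromosome 4 it was 18.5, where Dsim_Zeus had 5.93.

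Among the arms, 3R and chromosome 4 carried a smaller share of the Dsim_Zeus list than of the Dmel_Zeus list. Arm 3R held 85 Dsim_Zeus peaks, 7.80% of the list (6.35 to 9.54), and 72 Dmel_Zeus peaks, 19.1% (15.5 to 23.4), a difference of -11.4 points (-15.9 to -7.30). With equal numbers of top-scoring peaks it held 17 and 72, a difference of -14.6 points (-19.2 to -10.1). The difference was -7.06 points (-12.4 to -2.04) with the 6 arms alone as the total, and -4.34 (-10.5 to 1.55) on the arms without the 1 Mb next to the centromere end, where its interval included 0. Chromosome 4 held 8 Dsim_Zeus peaks, 0.734% (0.372 to 1.44), and 25 Dmel_Zeus peaks, 6.65% (4.54 to 9.63), a difference of -5.91 points (-8.92 to -3.69). Without that 1 Mb, which is most of chromosome 4, it was -1.27 points (-3.54 to 0.283).

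The shares on 2L, 2R and 3L differed less, and on 2R the interval of the difference included 0. On 2L the difference was -4.49 points (-8.60 to -0.922), on 3L it was -4.83 (-9.31 to -0.824) and on 2R -1.56 (-6.03 to 2.42). With the 6 arms alone as the total, the Dsim_Zeus share was instead the larger one on each of these arms. Arm 2L then held 96 of 602 Dsim_Zeus and 50 of 340 Dmel_Zeus peaks, 3L 130 and 63, and 2R 154 and 59. On X the share was 11.8% for Dsim_Zeus and 18.9% for Dmel_Zeus, a difference of -7.05 points (-11.7 to -2.87). The direction of the X difference also depended on the count. With the 6 arms alone as the total it was 0.546 points (-5.02 to 5.82), and with every repeated line counted it was 2.43 points (-1.94 to 6.24).

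**Figure D1:**
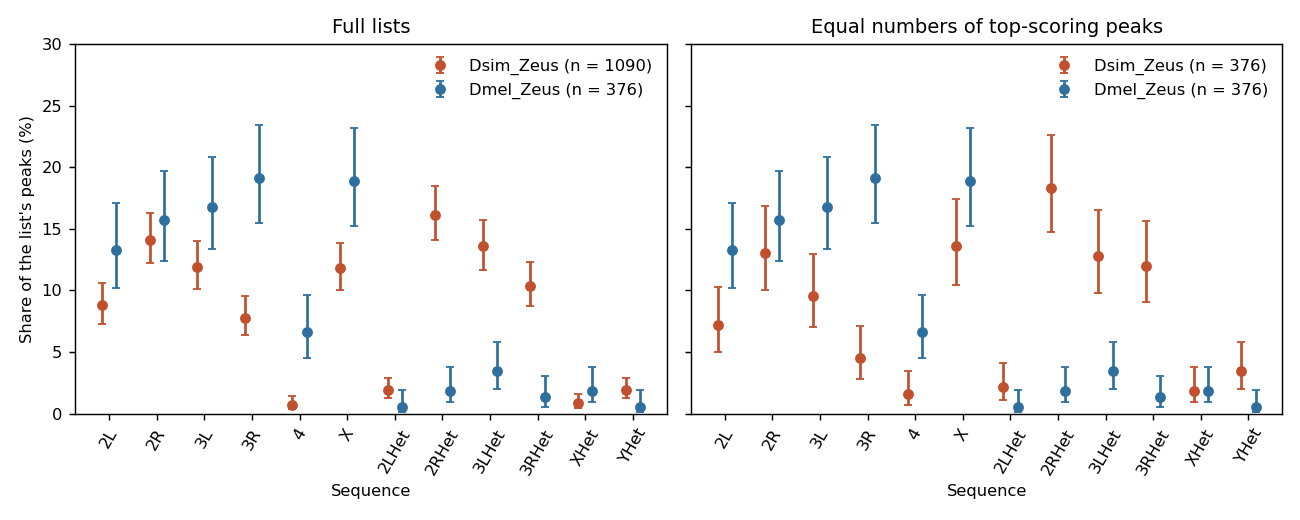
Share of each list's peaks (percent, with 95% Wilson intervals as bars) on each sequence of the build, for the full lists (left) and for equal numbers of top-scoring peaks (right). Dsim_Zeus lies above Dmel_Zeus on 2RHet, 3LHet and 3RHet and below it on 3R and chromosome 4 in both panels.

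Few places were shared. In all, 29 Dsim_Zeus peaks, 2.66% of that list (1.86 to 3.79), shared at least 1 bp with a Dmel_Zeus peak, and 21 Dmel_Zeus peaks, 5.59% of that list (3.68 to 8.39), did so with a Dsim_Zeus peak. They formed 31 pairs at 19 places. Of these places 11 were on heterochromatic sequences, 2 on chromosome 4 and 6 on the large arms. Only 1 of the 19, on YHet, lacked a Dyak_Caf40 peak, with all 1963 Dyak_Caf40 peaks taken. This is not particular to the shared places. Of all 376 Dmel_Zeus peaks, 317 (84.3%) overlapped a Dyak_Caf40 peak even when only the 376 highest-scoring of these were taken.

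The place with the lowest sum of ranks was on XHet. A Dsim_Zeus peak of 6809 bp at XHet:189285-196093, rank 8 by score and present on 64 lines, covered a region that the Dmel_Zeus list divided into 3 peaks. Those lay at XHet:189916-192901 (rank 6), XHet:193218-193809 (rank 32) and XHet:193898-197103 (rank 7). It was the single place with more Dmel_Zeus than Dsim_Zeus peaks. The other XHet pairs were narrower. They joined the Dsim_Zeus peaks of ranks 5, 9, 64 and 88 to the Dmel_Zeus peaks of ranks 23, 39, 59 and 83, from XHet:183899-184503 to XHet:202582-202900 on the Dsim_Zeus side. All 7 Dmel_Zeus peaks on XHet thus overlapped a Dsim_Zeus peak, as did 5 of the 9 Dsim_Zeus peaks there.

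Both Dmel_Zeus peaks on YHet were also shared. At YHet:137059-137555 the Dsim_Zeus peak (rank 13) lay inside the Dmel_Zeus peak YHet:137030-137583 (rank 15), with midpoints 0.5 bp apart. At YHet:4464-4878 the Dsim_Zeus peak (rank 6) met YHet:4454-4723 (rank 33), and this is the pair without Dyak_Caf40. The other 19 Dsim_Zeus peaks on YHet had no Dmel_Zeus partner. On 3RHet the pair 2308115 to 2308621 (Dsim_Zeus, rank 12) and 2308125 to 2308645 (Dmel_Zeus, rank 25) was the best ranked, and on 2RHet it was 3187847 to 3188234 (rank 30) and 3187834 to 3188367 (rank 65).

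At 4 places a wide Dmel_Zeus peak contained several separate Dsim_Zeus peaks. A Dmel_Zeus peak of 3978 bp on chromosome 4 at 612247 to 616224 (rank 46) held 3 Dsim_Zeus peaks, of which 615368 to 616050 had the best rank, 44. On 2R the Dmel_Zeus peak at 750965 to 755128 (rank 70) held 4, with 752994 to 753243 (rank 80) and 751203 to 751835 (rank 82) the best. On 3L the peak at 23108463 to 23110875 (rank 51) held 4, among them 23110002 to 23110390 (rank 62) and 23110453 to 23110654 (rank 126). On 3LHet the peak at 615152 to 619186 (rank 74) held 3, among them 617939 to 618420 (rank 47) and 616079 to 617395 (rank 48). In 22 of the 31 pairs the Dsim_Zeus peak lay wholly inside the Dmel_Zeus peak, and in 4 the reverse was true. At the 14 places with 1 peak of each list, the midpoints were a median of 84.5 bp apart.

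The remaining well-ranked pairs were on 3L near the centromere. At 3L:23842019-23842629 (rank 26) and 3L:23841908-23842731 (rank 69) the midpoints were 4.5 bp apart. At 3L:23107667-23108250 (rank 113) the Dsim_Zeus peak lay in the Dmel_Zeus peak 3L:23105814-23108301 (rank 60). The other shared places on the large arms lay 0.586 Mb (2L) to 1.39 Mb (3L) from the centromere end, with 1 exception, described here after its values were seen. It was on X, 17.0 Mb from the centromere end, where the Dsim_Zeus peak 5418689 to 5419132 (rank 687) met the Dmel_Zeus peak 5418565 to 5418880 (rank 168).

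Shared peaks ranked high in both lists. The 29 shared Dsim_Zeus peaks had a median rank of 82, and the other 1061 a median rank of 558. Of the 29, 25 were among the 376 highest-scoring, 86.2% (69.4 to 94.5), against 351 of 1061, 33.1% (30.3 to 36.0). The 21 shared Dmel_Zeus peaks had a median rank of 59 and the other 355 one of 198. Of the Dmel_Zeus peaks, 9 of the 21 shared and 6 of the 355 others were 1 kb or wider. A wide peak meets any other peak more easily, and width and score rose together in both lists (Spearman 0.55 over 1090 Dsim_Zeus peaks and 0.52 over 376 Dmel_Zeus peaks, as a description). The part of width in the ranks was not tested.

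The shared peaks also lay mainly in or beside heterochromatin. Of the shared Dmel_Zeus peaks, 18 of 21 were on a heterochromatic sequence or in the 1 Mb of an arm next to the centromere, 85.7% (65.4 to 95.02), against 68 of the 355 others, 19.2% (15.4 to 23.6). For Dsim_Zeus it was 23 of 29, 79.3% (61.6 to 90.2), against 630 of 1061, 59.4% (56.4 to 62.3). On 3R, the arm with most Dmel_Zeus peaks, no peak was shared. There 0 of 72 Dmel_Zeus peaks met the other list, so that a share of up to 4.17% is still possible, and 0 of 85 Dsim_Zeus peaks did, for which the limit is 3.53%. The shares over all 6 arms, 2.35% of Dmel_Zeus and 2.66% of Dsim_Zeus peaks, lie below these limits, so 3R is not set apart by its count.

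Peaks that did not overlap were mostly far apart. From a Dmel_Zeus peak the nearest Dsim_Zeus peak was a median of 141.3 kb away (95% order-statistic interval 123.8 to 160.2), edge to edge and with overlaps taken as 0. Within 10 kb there was one for 48 of 376 peaks, 12.8% (9.77 to 16.5), and within 100 kb for 153, 40.7% (35.8 to 45.7). From a Dsim_Zeus peak the nearest Dmel_Zeus peak was a median of 163.5 kb away (148.2 to 177.5), with 68 of 1090 within 10 kb, 6.24% (4.95 to 7.83).

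The Dsim_Zeus list is longer, which by itself shortens distances to it. With 376 top-scoring peaks from each list, the median distance from Dmel_Zeus to Dsim_Zeus was 370.5 kb (307.3 to 469.5) and the number within 10 kb was 34, 9.04% (6.54 to 12.4). The numbers were then equal over all sequences but not on the arms, which held 186 of these Dsim_Zeus and 340 of these Dmel_Zeus peaks. The part of this in the longer distance was not tested. The same 376 Dmel_Zeus peaks overlapped one of the 376 highest-scoring Dyak_Caf40 peaks in 317 cases, 84.3% (80.3 to 87.6), and a Dsim_Zeus peak in 18, 4.79% (3.05 to 7.44). The Dyak_Caf40 libraries, 635 to 674, lay in the number range of Dmel_Zeus, 633 to 671, and apart from Dsim_Zeus, 1004 to 1008. Library series and protein therefore cannot be told apart in these overlaps either. The 376 Dsim_Zeus peaks were about as far from either list. They overlapped 25 times with Dmel_Zeus and 25 times with Dyak_Caf40, 6.65% (4.54 to 9.63) in both cases, at median distances of 148.8 kb (127.1 to 168.6) and 132.0 kb (114.0 to 155.5).

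Distances were short where the Dsim_Zeus peaks were dense. For the 36 heterochromatic Dmel_Zeus peaks the median distance to Dsim_Zeus was 2.74 kb, 13 overlapped, 36.1% (22.5 to 52.4), and 26 had a Dsim_Zeus peak within 10 kb. On arm positions over 1 Mb from the centromere end, 3 of 290 Dmel_Zeus peaks overlapped, 1.03% (0.352 to 3.00), with a median distance of 196.8 kb (159.6 to 253.5). The reverse did not hold, since the 488 heterochromatic Dsim_Zeus peaks were a median of 171.4 kb from Dmel_Zeus and 13 of them overlapped, 2.66% (1.56 to 4.50).

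**Figure D2:**
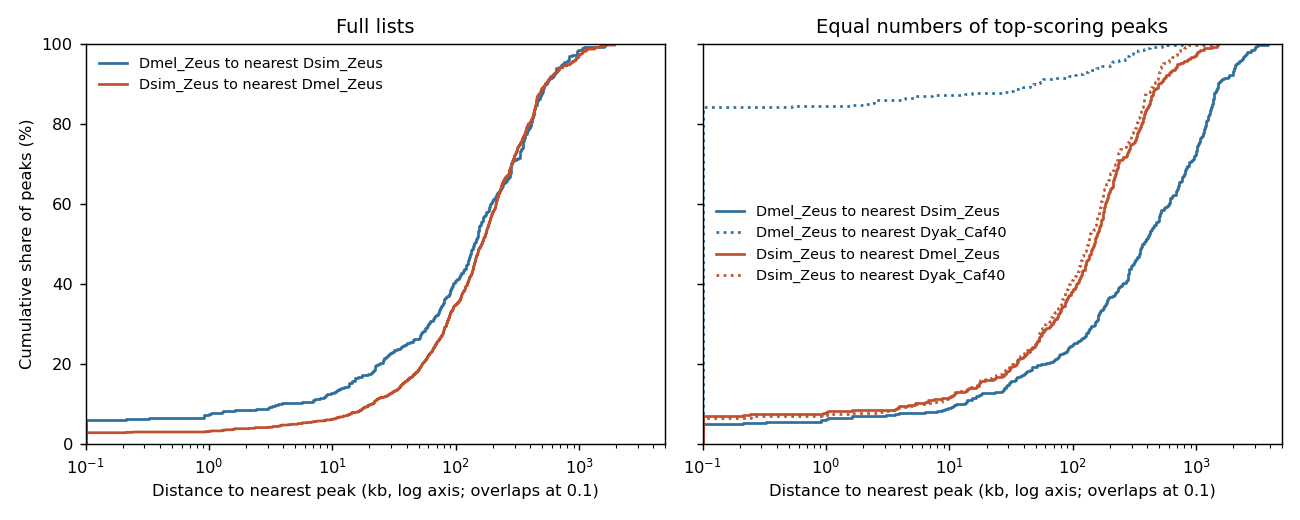
Cumulative share of peaks (percent) by distance to the nearest peak of another list (kb, log axis, overlaps drawn at 0.1 kb), for the full lists (left) and for equal numbers of top-scoring peaks (right). The dotted Dmel_Zeus line to Dyak_Caf40 starts at 84.3%, and the lines between the Zeus lists start at 4.79% and 6.65% in the right panel.

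The 5 highest-scoring peaks of Dmel_Zeus were all far from Dsim_Zeus, while those of ranks 6 and 7 met the Dsim_Zeus peak of rank 8 on XHet. The 5 best of Dmel_Zeus were on 3R at 17234084 to 17234498, on 3L at 18081155 to 18081523, on 3R at 2733798 to 2734189, on 2L at 8477963 to 8478358 and on 3R at 17405767 to 17406209. Each overlapped a Dyak_Caf40 peak, and in the same order the nearest Dsim_Zeus peak was 358.7, 431.3, 490.5, 1595 and 187.0 kb away. The best on the other arms were the peaks of rank 10 on 2R (20225038 to 20225441, 152.9 kb), rank 22 on X (16534538 to 16535059, 146.4 kb) and rank 37 on chromosome 4 (380328 to 380679, 233.1 kb).

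The 5 best of Dsim_Zeus began with XHet:5-771 and X:22422227-22422927, which lie at the first and the last bases with peaks on these sequences and were 183.1 and 636.8 kb from the nearest Dmel_Zeus peak. They were followed by 2R:12185605-12186098 (3.63 kb), X:12994561-12994994 (11.4 kb) and XHet:184617-185419, which overlapped the Dmel_Zeus peak of rank 23. The best on the remaining arms had rank 21 on 3L (4705648 to 4705966, 151.1 kb), rank 44 on chromosome 4 (615368 to 616050, overlapping), rank 45 on 2L (22410368 to 22411285, 3.83 kb) and rank 67 on 3R (24592218 to 24595493, 130.7 kb). Of the 10 best peaks, 4 of Dsim_Zeus and 2 of Dmel_Zeus overlapped the other Zeus, of the 50 best 11 and 9, and of the 100 best 17 in each list. Of the 100 best, 50 were heterochromatic for Dsim_Zeus and 17 for Dmel_Zeus.

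Along the large arms, Dsim_Zeus peaks were crowded toward the centromere. Of 594 peaks on 2L, 2R, 3L, 3R and X, 159 lay in the 1 Mb next to the centromere end, 26.8% (23.4 to 30.5), against 30 of 315 for Dmel_Zeus, 9.52% (6.75 to 13.3). The difference was 17.2 points (12.2 to 21.9), and among top-scoring peaks, 67 of 180 for Dsim_Zeus, it was 27.7 points (20 to 35.5). For Dmel_Zeus, too, the first 1 Mb held the largest share of any step of 1 Mb, followed by 7.94% at 6 to 7 Mb. The median distance from the centromere end was 4.49 Mb for Dsim_Zeus (3.13 to 6.51) and 10.3 Mb for Dmel_Zeus (8.68 to 11.8). When chromosome 4 was included, most of which is within 1 Mb of its end, the shares were 27.4% and 14.7%, 12.7 points apart (7.32 to 17.7). With every repeated line counted this last difference was 1.67 points (-2.93 to 5.68).

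The crowding differed between arms. On X 55 of 129 Dsim_Zeus peaks were within 1 Mb, 42.6% (34.4 to 51.3), and 2 of 71 Dmel_Zeus peaks, 2.82% (0.776 to 9.70). On 3L it was 37 of 130, 28.5% (21.4 to 36.7), and 3 of 63, 4.76% (1.63 to 13.1). On 3R the lists differed little, with 6 of 85 Dsim_Zeus peaks, 7.06% (3.28 to 14.6), and 7 of 72 Dmel_Zeus peaks, 9.72% (4.79 to 18.7). The difference there was -2.66 points (-12.4 to 6.31). Over the whole of 3R the lists had 3.05 and 2.58 peaks per Mb, fewer than the 6 and 7 in this 1 Mb. On 2L and 2R the difference was 8.04 and 8.12 points, with intervals that included 0 in the full lists (-6.91 to 20.7 and -4.63 to 18.2). In equal numbers of top-scoring peaks it was 22.7 points (2.08 to 43.02) on 2L and 21.5 (4.97 to 37.1) on 2R.

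Each large arm was also divided into a proximal, a middle and a distal part of equal length. The proximal part, next to the centromere, held 57.2% of the Dsim_Zeus peaks (53.2 to 61.2), the middle 18.7% and the distal part 24.1%. For Dmel_Zeus the proximal part was also the fullest over these arms together, with shares of 40.3% (35.0 to 45.8), 29.8% and 29.8%. This held on 2L, 2R and 3R. From the proximal to the distal part, 3L had 23, 11 and 29 Dmel_Zeus peaks, and X had 27, 30 and 14. Among top-scoring Dsim_Zeus peaks the proximal share was 70.0% (62.9 to 76.2). On 3R the Dsim_Zeus peaks were spread most evenly, with 31, 33 and 21 from the proximal to the distal part. The distal part of 2R held 53 Dsim_Zeus peaks, among them the cluster with most peaks in the list, described below.

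**Figure D3:**
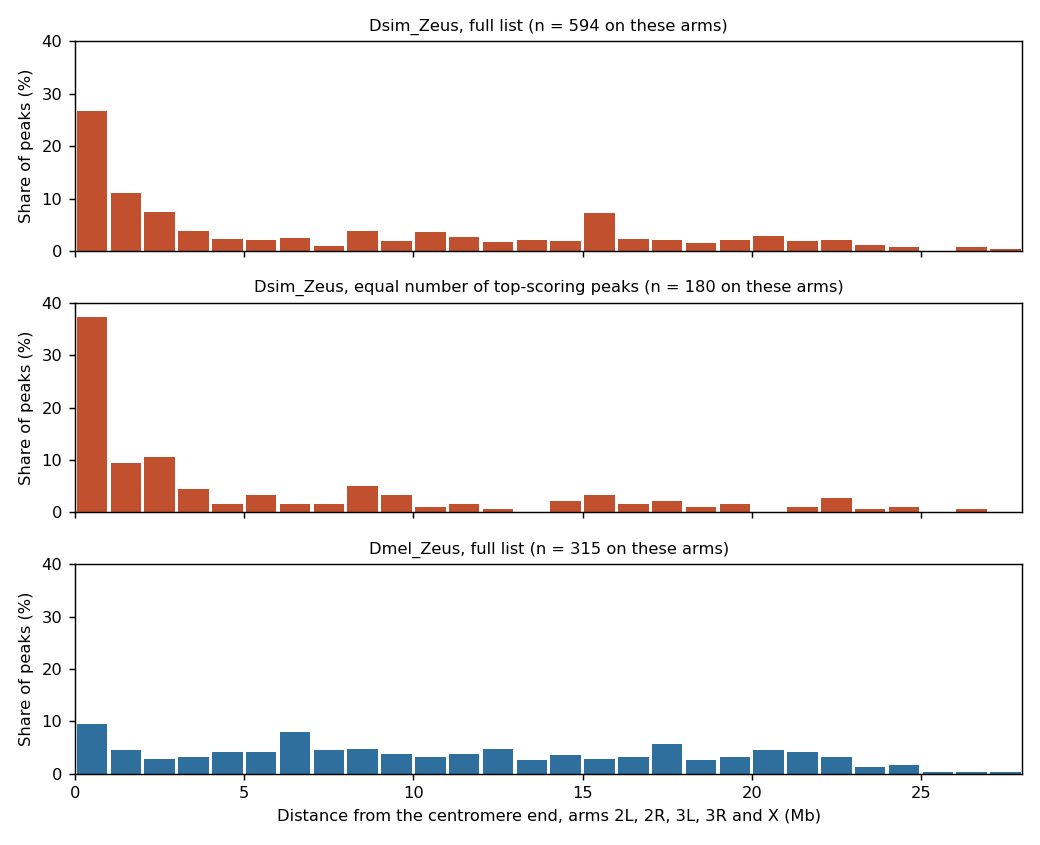
Share of peaks on the 5 large arms (percent, bars) by distance from the centromere end in steps of 1 Mb, for the full Dsim_Zeus list, its top-scoring peaks and the full Dmel_Zeus list. The first bar is 26.8%, 37.2% and 9.52%, and the bar at 15 Mb in the top panel includes the 31-peak cluster on 2R.

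At coarse scale, the full lists of both proteins had peaks on most of each arm's length. In 123 bins of 1 Mb, Dsim_Zeus had a peak in 100, Dmel_Zeus in 105, both in 84 and neither in 2. Of the bins with a Dmel_Zeus peak, 80% (71.4 to 86.5) also held a Dsim_Zeus peak, and 48.6% (39.2 to 58.0) did so in equal numbers of top-scoring peaks, where Dsim_Zeus had a peak in 59 of all 123 bins. The number of peaks in a bin was nearly unrelated between the lists (Spearman 0.07 over the 123 bins, as a description of bins that share arm and position). The 10 fullest bins held 278 of 602 arm peaks for Dsim_Zeus, 46.2%, and 90 of 340 for Dmel_Zeus, 26.5%.

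Some of the fullest bins were full in 1 list and others in both. For Dsim_Zeus the first 3 were 23 to 24 Mb on 3L (52 peaks, against 4 of Dmel_Zeus), 21 to 22 Mb on X (50 against 2) and the first Mb of 2R (36 against 9). For Dmel_Zeus the first 2 were the first Mb of chromosome 4 (20 peaks, against 6 of Dsim_Zeus) and 15 to 16 Mb on X (11 against 1). They were followed by the first Mb of 2R (9 against 36) and 22 to 23 Mb on 2L (8 against 25), where Dsim_Zeus peaks were also numerous. The longest stretch without a peak of one list held peaks of the other on each large arm. On chromosome 4 the longest in the Dmel_Zeus list, 0.211 Mb, held 0 Dsim_Zeus peaks. The longest in the Dsim_Zeus list, 3.26 Mb on 2L from 6882724 to 10138570, held 4 Dmel_Zeus peaks, among them the one of rank 4. The longest in the Dmel_Zeus list, 4.23 Mb on 3L from 9607384 to 13838434, held 9 Dsim_Zeus peaks, and a stretch of 3.08 Mb on X from 2136327 to 5216575 held 10. Over the whole arm Dmel_Zeus had 2.17 peaks per Mb on 2L, and Dsim_Zeus 5.31 on 3L and 5.75 on X. Each of these stretches was thus sparser in the other list than its arm as a whole.

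Within a list, Dsim_Zeus peaks came in groups and Dmel_Zeus peaks mostly alone. The nearest peak of the same list was a median of 1.88 kb away for Dsim_Zeus (1.59 to 2.15) and 58.9 kb for Dmel_Zeus (44.7 to 70.9), and 5.14 kb (3.92 to 6.77) for the 376 top-scoring Dsim_Zeus peaks. A neighbour within 10 kb was found for 849 Dsim_Zeus peaks, 77.9% (75.3 to 80.3), and for 98 Dmel_Zeus peaks, 26.1% (21.9 to 30.7), 51.8 points apart (46.5 to 56.6). With equal numbers the difference was 33.2 points (26.4 to 39.6). The grouping was not limited to regions near the centromere. On arm positions over 1 Mb away, 73.2% of 437 Dsim_Zeus peaks (68.9 to 77.2) and 20% of 290 Dmel_Zeus peaks (15.8 to 24.98) had such a neighbour. Among top-scoring peaks the Dsim_Zeus share there was smaller, 42.6% of 115 (34.0 to 51.7). On heterochromatic sequences the shares were 82.6% (79.0 to 85.7) and 66.7% (50.3 to 79.8). There the shares were close among top-scoring peaks, with 65.8% for Dsim_Zeus (58.8 to 72.2). The Dmel_Zeus share rests on 24 of 36 peaks, and its interval is too wide to show that the lists were alike.

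When peaks of a list closer than 10 kb were joined, Dsim_Zeus formed 472 clusters and Dmel_Zeus 319, of which 241 and 278 were single peaks. Clusters of at least 5 peaks numbered 55 for Dsim_Zeus, with 399 peaks in them, 36.6% of the list. Of these, 32 were on heterochromatic sequences and 9 in the 1 Mb of an arm next to the centromere. Dmel_Zeus had 1 such cluster, of 7 peaks.

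The largest Dsim_Zeus cluster was in the distal part of 2R at 15610535 to 15653899, with 31 peaks in 43.4 kb. Their midpoints followed each other at a median step of 1.04 kb (0.374 to 6.63), their ranks ran from 244 to 1085, and they took up 221 lines. No Dmel_Zeus or Dyak_Caf40 peak lay in it. The second, 2RHet:3079905-3127129, had 15 peaks at a median step of 0.949 kb and also no peak of the other lists. The third, X:21789282-21835165, had 13 peaks, the best at rank 10, and 2 Dyak_Caf40 peaks. The cluster on 2L at 21453291 to 21506237, named here after its values were seen, was the most regular of these 4. In it 9 of the 11 steps between 12 Dsim_Zeus peaks measured 4 to 6 kb, with a median of 5.05 kb, and it held 5 Dyak_Caf40 and 0 Dmel_Zeus peaks.

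The largest Dmel_Zeus clusters were smaller. The first was the shared region XHet:183920-204058, with 7 peaks, all overlapping Dsim_Zeus. The second, 3LHet:601281-620415, had 4 peaks and held 3 Dsim_Zeus peaks. The third, on chromosome 4 at 769268 to 781375, also had 4, of ranks 346 to 373, with 5 Dyak_Caf40 peaks and no Dsim_Zeus peak.

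Dsim_Zeus peaks were somewhat wider. The median width was 358 bp (343 to 373) for Dsim_Zeus and 314 bp (296 to 329) for Dmel_Zeus, and 586.5 bp (543 to 632) for the 376 top-scoring Dsim_Zeus peaks. Both lists started at 200 bp, and the widest peaks had 6809 and 4164 bp. Peaks of 1 kb or more made up 8.81% of the Dsim_Zeus list (96 peaks) and 3.99% of the Dmel_Zeus list (15 peaks). The order turned on heterochromatic sequences, where the medians were 371.5 bp (347 to 393) for Dsim_Zeus and 437 bp (330 to 573) for Dmel_Zeus, with overlapping intervals. Among the 376 top-scoring Dsim_Zeus peaks the median on heterochromatic sequences was 596.5 bp (543 to 646). The whole Dmel_Zeus list has 376 peaks, so only Dsim_Zeus was selected by score. Score rose with width, so these top-scoring widths cannot show which protein had wider peaks. In the higher-scoring 50% of each list, the medians over all sequences were 511 bp for Dsim_Zeus and 355 bp for Dmel_Zeus. On the arms the medians of the full lists were 346.5 bp (333 to 369) for Dsim_Zeus and 306 bp (291 to 323) for Dmel_Zeus. In all, the peaks covered 560.6 kb and 155.8 kb.

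**Figure D4:**
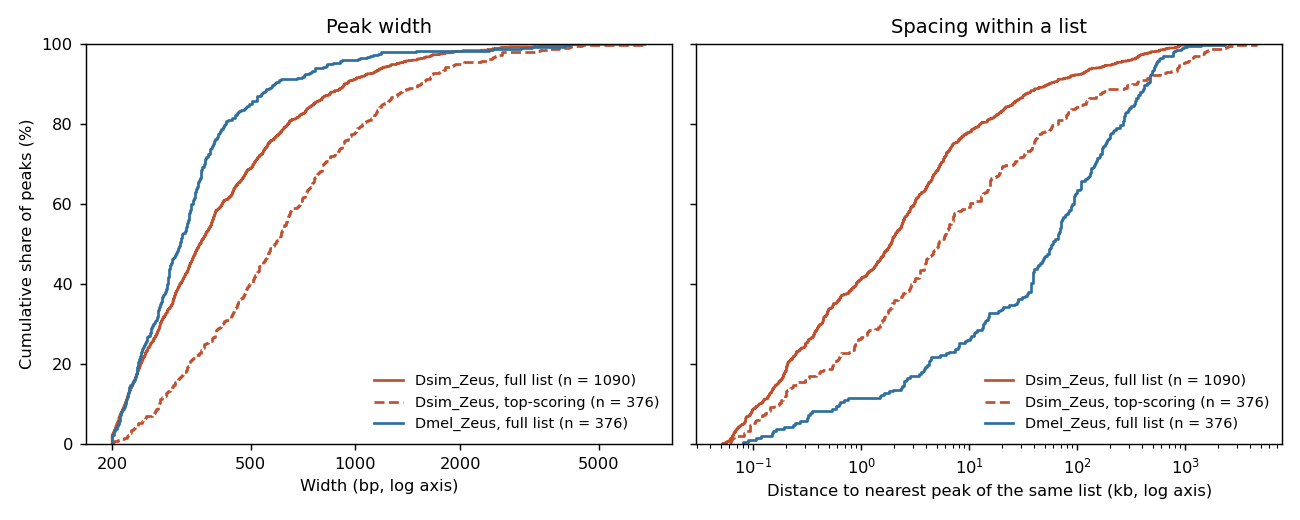
Cumulative share of peaks (percent) by width (left, bp, log axis) and by distance to the nearest peak of the same list (right, kb, log axis), for the full lists and the top-scoring Dsim_Zeus peaks. The Dsim_Zeus lines lie to the right of Dmel_Zeus in width, at medians of 358 and 586.5 against 314 bp, and mostly to its left in spacing, at medians of 1.88 and 5.14 against 58.9 kb. Only Dsim_Zeus was selected by score, which rose with width.

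The lists also differed in how many of their peak numbers were present. Every peak name ends in a number, and these numbers rose along the sequences without exception, so that gaps show numbers that are not in the list. In the Dsim_Zeus list the numbers reached 7835, and the 1091 peaks, mitochondrial genome included, used 13.9% of them (13.2 to 14.7). In the Dmel_Zeus list they reached 427, and the 378 peaks used 88.5% (85.2 to 91.2). What the missing numbers stood for is not given in the sources used here. Peaks with those numbers were not analysed.

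The share of numbers present varied with position in the Dsim_Zeus list. Between the first and the last peak of each arm, 602 of 5947 numbers were present, 10.1%, against 488 of 1626 on heterochromatic sequences, 30.01%. Within 1 Mb of the centromere end of a large arm it was 159 of 663, 24.0%, and on the rest of these arms 435 of 4929, 8.83%. The lowest shares were on chromosome 4 (8 of 262, 3.05%) and 3R (6.75%), and the highest on XHet (64.3%) and YHet (55.3%). In the Dmel_Zeus list the order was the reverse, with 93.2% present on the arms and 70.6% on heterochromatic sequences.

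Counted by numbers instead of listed peaks, the lists were closer to each other on heterochromatic sequences, 3R and chromosome 4, but not on X. For Dsim_Zeus, heterochromatic sequences spanned 20.8% of all numbers and held 44.8% of the listed peaks, and for Dmel_Zeus 11.9% and 9.57%. Arm 3R spanned 16.1% of the Dsim_Zeus and 16.9% of the Dmel_Zeus numbers, and chromosome 4 spanned 3.34% and 6.32%. X spanned 10.9% and 18.7%, against 11.8% and 18.9% of the listed peaks.

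**Figure D5:**
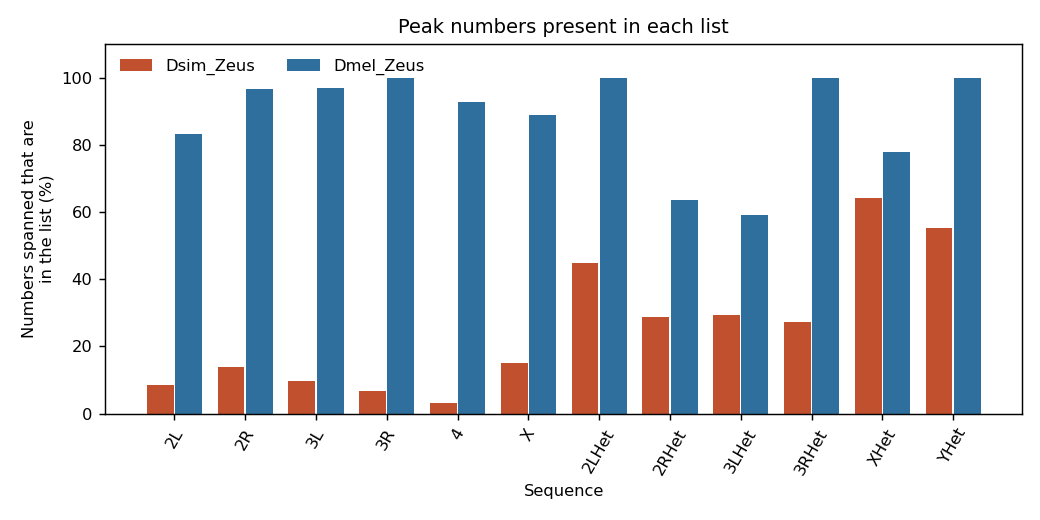
Share of the peak numbers between the first and the last peak of a sequence that are in the list (percent, bars), for Dsim_Zeus and Dmel_Zeus. The Dsim_Zeus bars run from 3.05% on chromosome 4 to 64.3% on XHet, and the Dmel_Zeus bars from 59.1% on 3LHet to 100% on 3R and other sequences.

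Chromosome 4 shows both patterns on a small scale. Its 8 Dsim_Zeus peaks lay at 5694 to 6316, 35569 to 36571, in the shared place at 612247 to 616224 (3 peaks), at 703468 to 703744, at 1335272 to 1335544 and at 1348257 to 1348522. The peak at 703468 to 703744 (rank 994) overlapped the Dmel_Zeus peak 703212 to 703755 (rank 171). Thus 4 of the 8 were shared, 50% (21.5 to 78.5), and 2 of the 25 Dmel_Zeus peaks, 8% (2.22 to 24.97). Between 703745 and 1335271 the Dsim_Zeus list had no peak and skipped 102 numbers, and the Dmel_Zeus list had 13 peaks.

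Repeated lines were a feature of the Dsim_Zeus list and rose with width. Its 3073 lines reduced to 1091 distinct peaks, and 254 of the 1090 analysed stood on more than 1 line, up to 200. Of those under 500 bp, 81 of 750 did (10.8%), and of those of 2000 bp or more, 19 of 20, with a median of 24 lines. In the Dmel_Zeus list 8 of 376 peaks were repeated, on at most 4 lines, 5 of them among the 7 peaks of 2000 bp or more. The origin of the repeats is not given in the sources used here.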

How the data were processed

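Peaks of FLAG-tagged Dsim_Zeus and Dmel_Zeus from ChIP-Seq of whole flies were analysed as deposited, 1 list per protein with sequence, start, end, name and score of each peak. According to the study's methods, reads were mapped with BWA to dm3, peaks were called with MACS2 and peaks intersecting between the best pair of replicates were kept. Which pair that was, and whether the input, sequenced as a negative control, entered peak calling, are not given in the sources used here. The submitters' processing notes list CASAVA 1.4 and, unlike the methods, the mouse build mm9. The interval ends and the score were deposited by the authors, and the scale of the score is not stated, so it was used only for ranks within a list. The columns hold no value per library and no depth.

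Identical lines were counted once and the mitochondrial genome was left out. Lists were assigned by the letter that the library titles share with each list. Coordinates were counted from 1. The length of a sequence was the highest peak end in the 3 lists, and the centromere end was the high end of 2L, 3L and X and the low end of 2R, 3R and 4. Shares have 95% Wilson, differences (Dsim_Zeus minus Dmel_Zeus) 95% Newcombe and medians 95% binomial order-statistic intervals. A count of 0 was given the limit of 3 counts. Peaks shared at least 1 bp to overlap. No p-values were computed.

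The regions named were the 20 overlapping pairs with the lowest sum of score ranks (all pairs had there been at most 30), the 5 highest-scoring peaks of each list, the highest on each arm and the 3 clusters with most peaks. No gene is named, as an annotation of dm3 was not used here. The members and lists were chosen with earlier results of these data known. Python 3.11.15, numpy 2.4.6, pandas 2.3.3, SciPy 1.17.1 and Matplotlib 3.10.9 were used, and the functions were tested on simulated data. Alternatives comprised equal numbers of top-scoring peaks, the higher-scoring 50%, every line, the arms alone, clusters, base pairs covered and other limits.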

Additional observations from a re-analysis of the deposited data

Results flagged for a closer look

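The mitochondrial genome, left out of the comparisons, held 168 lines of the Dsim_Zeus list, all repeats of 1 peak of 14749 bp. The Dmel_Zeus list had 2 distinct mitochondrial peaks on 2 lines, and the Dyak_Caf40 list 1 on 1 line. Their origin was not tested.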

How the results depend on the processing

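Of 79 alternatives to 13 results, 40 left the value within its interval or spread, 37 moved it and 2 turned its direction. Of 39 alternatives to a difference between the lists, 37 kept its sign. Both exceptions concern X, with 0.546 points on the 6 arms alone and 2.43 points with every line counted. The causes of the moves were not tested.

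Overlap and distance. The share of Dmel_Zeus peaks that overlapped was 2.35% on the arms alone, 9.57% in the higher-scoring 50% and 8.70% with every line. That of Dsim_Zeus was 6.65% in equal numbers, 4.77% in the higher-scoring 50% and 1.28% for midpoints within 250 bp. The median distance from Dmel_Zeus was 370.5 kb in equal numbers and 221.8 kb in the higher-scoring 50%. From Dsim_Zeus it was 208.5 kb in the higher-scoring 50% and 189.1 kb with every line. Of the 1 Mb bins with a Dmel_Zeus peak, 48.6% held Dsim_Zeus in equal numbers and 61.9% in the higher-scoring 50%, and with bins of 0.5 and 2 Mb it was 59.1% and 98.3%.

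Shares, width and spacing. The 3R difference was -7.06 points on the arms alone. The X difference was -1.87 in the higher-scoring 50% and -2.33 in base pairs covered. The heterochromatic difference was 41.0 points in equal numbers and 28.5 in base pairs. Within the centromere window it was 23.5 in equal numbers, 21.7 in the higher-scoring 50%, 1.67 with every line, 4.79 within 0.5 Mb and 18.4 within 2 Mb. The spacing difference was 33.2 in equal numbers, 29.8 for neighbours within 1 kb and 42.6 within 50 kb. Median widths were 586.5 bp for Dsim_Zeus in equal numbers, 511 bp in the higher-scoring 50% (355 bp for Dmel_Zeus) and 1156 bp with every line.

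An alternative chosen after seeing the data left out the 1 Mb of each arm next to the centromere, most of chromosome 4 included. It gave overlaps of 1.03% and 1.37% of Dmel_Zeus and Dsim_Zeus, median distances of 200.3 and 189.1 kb, and differences of -4.34 points on 3R (-10.5 to 1.55) and -1.27 on chromosome 4 (-3.54 to 0.283), both with intervals that include 0. The centromere difference without chromosome 4, 17.2 points, was also added then.

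No paired analysis was possible because each list gives peaks without per-library values, and for the same reason no replicate was left out. The search for the CAZAM core motif in the peaks was not run, as no genome of the build was used here. Depth per peak is unknown, and a place without a peak in one list is not shown to be unbound. The labels describe fewer immunoprecipitated libraries for Dmel_Zeus, 2 against 4.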
